A study of Homo sapiens with 6 samples.

Results

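The HOX genes were read across 6 RNA sequencing (RNA-seq) libraries of MDA-MB-231 cells. Members were all genes whose NCBI Gene ID carries a current symbol of the form HOXA, HOXB, HOXC or HOXD followed by a number. Of 39 such symbols, 26 were found among the 16623 genes of the processed files, with 5 in the HOXA cluster, 8 in HOXB, 8 in HOXC and 5 in HOXD. The other 13, among them HOXA5, HOXB13, HOXC12 and HOXD9, were not analysed here. MDA-MB-231 is an established cell line from a triple-negative breast cancer. The compound tested, PCI-24781, inhibits histone deacetylases (HDACs), and DMSO is its solvent. Adherent cells were exposed for 24 h or 48 h to the solvent or to the inhibitor at 100 nM or 200 nM. Each of these 6 conditions had 1 library, so no difference below has a replicate check and no test was run. In bulk RNA, fewer cells that express a gene and less RNA per cell cannot be told apart. Levels in all libraries are listed as DMSO, 100 nM and 200 nM of 24 h, then the same for 48 h. The values are FPKM (fragments per kilobase of transcript scaled to the mapped fragments of the library), which allow levels to be compared between genes of different length.

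HOX genes encode transcription factors with a DNA-binding homeodomain, which give cells their position along the head-to-tail axis of the embryo. They lie in 4 clusters, and within a cluster the low numbers (anterior, or 3′, genes) are switched on earlier and nearer the head than the high numbers (posterior, or 5′, genes). Differentiated cells and tumour lines keep a fixed combination of active and silent HOX genes, held by Polycomb complexes, which silence, and by Trithorax-type methyltransferases, which keep genes active. HDACs are parts of several corepressor complexes, so the HOX genes serve as a set of silent and active genes in which reactivation by an HDAC inhibitor can be looked for. HOX proteins bind DNA together with the TALE cofactors of the PBX, MEIS and PKNOX families.

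The sequences before the transcription start are shown for 4 members that differ in expression. HOXD1 and HOXD4 were expressed, HOXD11 of the same cluster was near 0, and HOXA13 was the highest HOXA gene. Each run is the 250 bases before the start in RefSeq (GRCh38.p14), written 5′ to 3′ on the gene's strand, with every CpG dinucleotide, the site of DNA methylation, in capitals. The regions are chr2:176188418-176188667 on the plus strand for HOXD1, chr2:176151300-176151549 on the plus strand for HOXD4, chr2:176107030-176107279 on the plus strand for HOXD11 and chr7:27200092-27200341 on the minus strand for HOXA13.
HOXD1: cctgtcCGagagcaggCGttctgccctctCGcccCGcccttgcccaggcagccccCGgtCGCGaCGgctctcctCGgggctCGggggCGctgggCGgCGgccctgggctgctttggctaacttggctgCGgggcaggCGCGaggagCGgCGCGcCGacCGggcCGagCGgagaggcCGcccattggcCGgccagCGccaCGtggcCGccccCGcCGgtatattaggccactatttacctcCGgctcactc
HOXD4: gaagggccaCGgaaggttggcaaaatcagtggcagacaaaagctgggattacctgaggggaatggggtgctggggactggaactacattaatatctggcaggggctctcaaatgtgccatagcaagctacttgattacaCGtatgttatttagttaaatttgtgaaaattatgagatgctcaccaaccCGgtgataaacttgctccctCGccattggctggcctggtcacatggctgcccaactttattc
HOXD11: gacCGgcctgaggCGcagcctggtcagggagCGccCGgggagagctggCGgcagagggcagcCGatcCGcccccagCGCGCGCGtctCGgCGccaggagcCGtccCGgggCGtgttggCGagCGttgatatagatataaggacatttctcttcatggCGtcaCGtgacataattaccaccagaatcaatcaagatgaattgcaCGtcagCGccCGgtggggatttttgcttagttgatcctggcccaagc
HOXA13: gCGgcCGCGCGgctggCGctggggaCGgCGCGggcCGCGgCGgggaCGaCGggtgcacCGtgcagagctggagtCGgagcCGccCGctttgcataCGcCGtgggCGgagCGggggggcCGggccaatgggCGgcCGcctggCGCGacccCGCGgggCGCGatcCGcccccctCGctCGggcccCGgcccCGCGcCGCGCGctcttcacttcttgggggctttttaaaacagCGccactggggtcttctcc

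HOXD1 held 31 CpG dinucleotides, HOXD4 held 4, HOXD11 held 23 and HOXA13 held 40. The expressed HOXD4 thus had the fewest of these, and the near-silent HOXD11 had more than the median of 18 over the 19226 windows of protein-coding genes in the files. Windows were found for 12 of the 26 members, 19 in all, of which HOXA3 has 7 and HOXA10 has 2, and HOXC4 and HOXC5 have the same window, counted for each. Their median was 19 CpG dinucleotides. The letters TATAAA, searched on both strands, were in 5 of the 19 (26.3%), belonging to HOXA3, HOXA9, HOXA10 and HOXD13, in 10.7% of all 35116 windows of the table and in 7.37% of those of protein-coding genes in the files. The letters TGATNNAT, the core of HOX and PBX joint sites, were in 1 of the 19 (5.26%), that of HOXD11, in 6.47% of all windows and in 3.81% of those of protein-coding genes in the files. TATAAA and TGATNNAT were counted separately whether or not they overlapped. A match of letters is a description of the window and says nothing of binding.

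The files hold no counts. The depth, inferred from the steps between low FPKM values of short genes with 1 transcript, was about 15650000 to 17950000 fragments per library. On a transcript of 2 kb, 3 fragments then correspond to an FPKM of 0.0836 to 0.0958. Markers of the line were present, with VIM between 1629 and 2053 FPKM and EGFR between 35.1 and 49.8, while the estrogen receptor gene ESR1 was at most 0.04 and PGR at most 0.03. Of the luminal markers, CDH1 was at most 0.39, GATA3 at most 1.03 and FOXA1 at most 1.75. Of the markers of fibroblasts, leukocytes and erythroid cells, LUM, DCN and CD3E were at most 0.07, HBB at most 0.11, COL3A1 at most 0.33 and HBA1 at most 0.67, whereas the collagen gene COL1A1 reached 6.68 and the leukocyte gene PTPRC lay between 0.76 and 1.01, and their part in the results was not tested. Although both DMSO libraries are labelled as solvent controls, 286 genes were at least 2-fold higher in the one of 48 h than in that of 24 h, more than in either comparison of PCI-24781 with DMSO at 48 h. Each 24 h comparison rests on the DMSO 24 h library alone.

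HOX expression in these cells was low and came from few genes. Only 5 of the 26 members reached an FPKM of 1 in any library (HOXB9, HOXD3, HOXD4, HOXD1 and HOXB3), against 71.6% of all genes in the files, and 12 members stayed under 0.1 in every library, against 11.5% of all genes. The median over members of the mean FPKM was 0.067, and over all genes it was 5.55. HOXB9, HOXD3, HOXD4 and HOXD1 together made up between 75.7% and 81.1% of the summed HOX FPKM of a library. The summed FPKM of all 26 members was 17.2, 22.7 and 18.4 (24 h), then 20.8, 18.6 and 20.3 (48 h). The highest sum was thus 1.31 times the lowest.

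**Figure D1:**
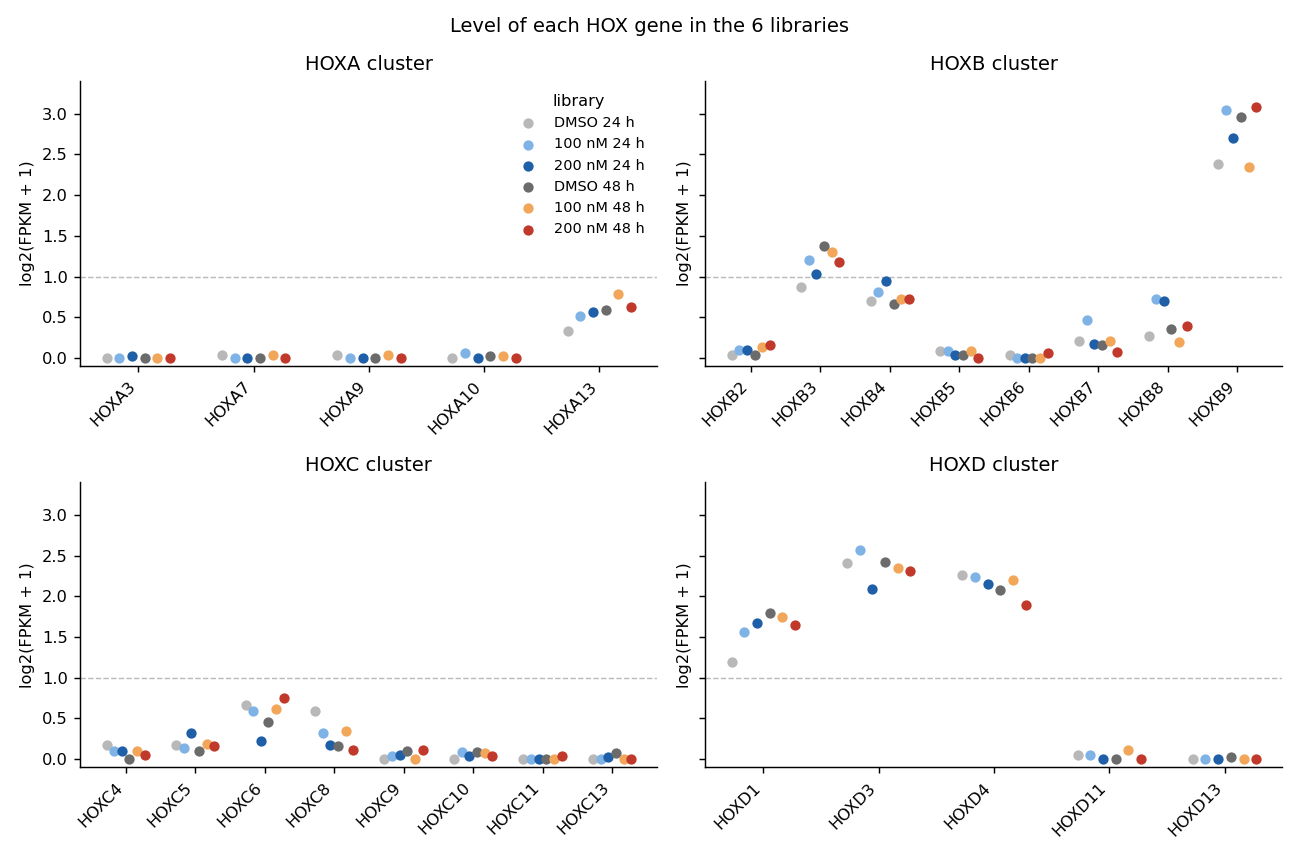
Level of each of the 26 HOX genes in each library, as log2(FPKM + 1) on the vertical axis, with genes of a cluster ordered by number from the anterior end, points coloured by library and a dashed line at an FPKM of 1. HOXB9 and the anterior HOXD genes HOXD1, HOXD3 and HOXD4 stand above the line in every library, HOXB3 does in all but DMSO 24 h, and the HOXA genes other than HOXA13 and the posterior HOXC and HOXD genes lie at 0 or nearly so.

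The clusters differed in which end was expressed. The HOXD cluster was split. Its anterior genes HOXD1, HOXD3 and HOXD4 were all above an FPKM of 1 in all libraries, and its posterior genes HOXD11 and HOXD13 were at most 0.08 and 0.02. In the coordinates of the files (hg19 by the submitters' processing notes), HOXD4 lies on chromosome 2 from 177016113 to 177017951, HOXD3 from 177028805 to 177037826 and HOXD1 from 177053307 to 177055635, all on the plus strand. HOXD11 ends 41796 bases before HOXD4 starts. Between them lie members that were not analysed here, so the position of the change from near-silent to expressed within HOXD is known only to this interval.

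In the HOXB cluster, the highest levels were those of HOXB9, at the posterior end of the measured part, and of HOXB3 and HOXB4, next to the anterior HOXB2. HOXB9 (NCBI Gene ID 3219, chromosome 17 from 46698518 to 46703835, minus strand) was the highest HOX gene on average, with a mean FPKM of 5.88. HOXB3 (46626232 to 46651810) and HOXB4 (46652869 to 46655743) had means of 1.25 and 0.70. HOXB5, HOXB6 and HOXB7 stayed at or below 0.06, 0.04 and 0.38, and HOXB2 at or below 0.12. HOXB8, which ends 6216 bases before HOXB9 begins, lay between 0.15 and 0.65 while HOXB9 lay between 4.06 and 7.44. The lowest HOXB9 value was thus above the highest HOXB8 value. The order of the mean FPKM, HOXB9, HOXD3, HOXD4, HOXD1, HOXB3, was not the order in every library, since HOXD3 at 4.30 and 4.09 was slightly above HOXB9 at 4.21 and 4.06 in DMSO 24 h and in the 100 nM library of 48 h. The range of HOXD3 overlapped those of HOXB9 and HOXD4, while every HOXB9 value was above every HOXD4 value. The ranges of HOXD1 and HOXB3 overlapped, and every HOXD4 value was above every HOXD1 value.

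The HOXA and HOXC clusters held no gene that reached an FPKM of 1. In HOXA, 4 of 5 members (HOXA3, HOXA7, HOXA9 and HOXA10) were at most 0.04, and the most posterior gene, HOXA13, which acts in limb and genital tract development, was the exception with 0.26 to 0.72. In HOXC, HOXC9, HOXC10, HOXC11 and HOXC13 were at most 0.08, HOXC4 and HOXC5 at most 0.13 and 0.25, and HOXC6 and HOXC8 reached 0.68 and 0.51. HOXC4 and HOXC6 have the same start and end in the files (chromosome 12 from 54410636 to 54424607). Some of their transcripts share a first exon, which can give a shared start but not a shared end. The listed end lies before HOXC5 (from 54426832), although HOXC4 is the more anterior gene, so the coordinates of HOXC4 are in doubt. Fragments could be divided between HOXC4 and HOXC6, and both values are uncertain. The 12 members under 0.1 (4 in HOXA, 2 in HOXB, 4 in HOXC and 2 in HOXD) had 41 of their 72 values listed at 0, and none of the values above 0 corresponded to more than about 2.2 fragments. A difference between libraries in these 12 was not detectable at this depth.

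By paralog group, the sets of genes with the same number in different clusters, expression came from groups 9, 3, 4 and 1. Within each, 1 cluster supplied most of it. Of group 9, HOXB9 reached 7.44 while HOXA9 and HOXC9 were at most 0.03 and 0.08. Of group 3, HOXD3 was at 3.26 to 4.95 and HOXB3 at 0.83 to 1.60, with HOXA3 at most 0.02. Of group 4, HOXD4 was at 2.71 to 3.78, HOXB4 at 0.58 to 0.93 and HOXC4 at most 0.13. Groups 10 and 11 were at most 0.06 and 0.08 in any member measured.

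The members were next compared between each treated library and its solvent control. A call required a change of FPKM + 1 of 2-fold or more and an FPKM of 1 or more in either of the libraries, and log2 changes below are differences in log2(FPKM + 1), which understate the change of low genes. No HOX gene was called in any comparison, higher or lower, and each comparison tested 5 members. Of all tested genes, 1.35% were called higher and 0.131% lower with 100 nM for 24 h. With 200 nM for 24 h these shares were 4.49% higher and 1.48% lower. With 100 nM for 48 h they were 0.0608% higher and 0.408% lower, and with 200 nM for 48 h 0.206% higher and 0.06% lower. Between the DMSO libraries, 2.49% were called higher at 48 h and 0.131% lower. With shares this low over all genes, a count of 0 among 5 does not set the HOX genes apart. No member that was under an FPKM of 1 in the DMSO libraries of both times reached 1 with PCI-24781. HOXB3 was under 1 in DMSO 24 h only (0.83), with 1.31 (100 nM) and 1.05 (200 nM) for 24 h and 1.60 in DMSO 48 h.

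The median log2 change over all 26 members was 0.00 with either dose for 24 h, and 0.02 (100 nM) and 0.00 (200 nM) for 48 h. Over all genes the medians were 0.01, 0.03, -0.01 and 0.01. All but 5 members stayed under an FPKM of 1, where a pseudocount of 1 keeps log2 changes small. The median over all 26 therefore says little of a response. Over the 5 with a mean FPKM of 1 or more, the median was 0.34 (100 nM) and 0.16 (200 nM) for 24 h. For 48 h it was -0.07 and -0.15, and between the DMSO libraries 0.51. With 100 nM for 24 h the members ranged from -0.27 (HOXC8) to 0.67 (HOXB9), and with 200 nM from -0.44 (HOXC6) to 0.48 (HOXD1). After 48 h the range was -0.62 (HOXB9) to 0.19 (HOXA13) with the lower dose, and -0.20 (HOXB3) to 0.29 (HOXC6) with the higher dose. Counting differences of any size, 12 members were above and 8 below the control with 100 nM for 24 h, and 12 above and 11 below with 200 nM. For 48 h, 13 were above and 9 below with 100 nM, and 11 above and 11 below with 200 nM. These counts include the 12 members under an FPKM of 0.1, whose differences were not detectable. They also lack the shares over all genes, so no direction can be read from them. The doses of each time share their DMSO library.

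**Figure D2:**
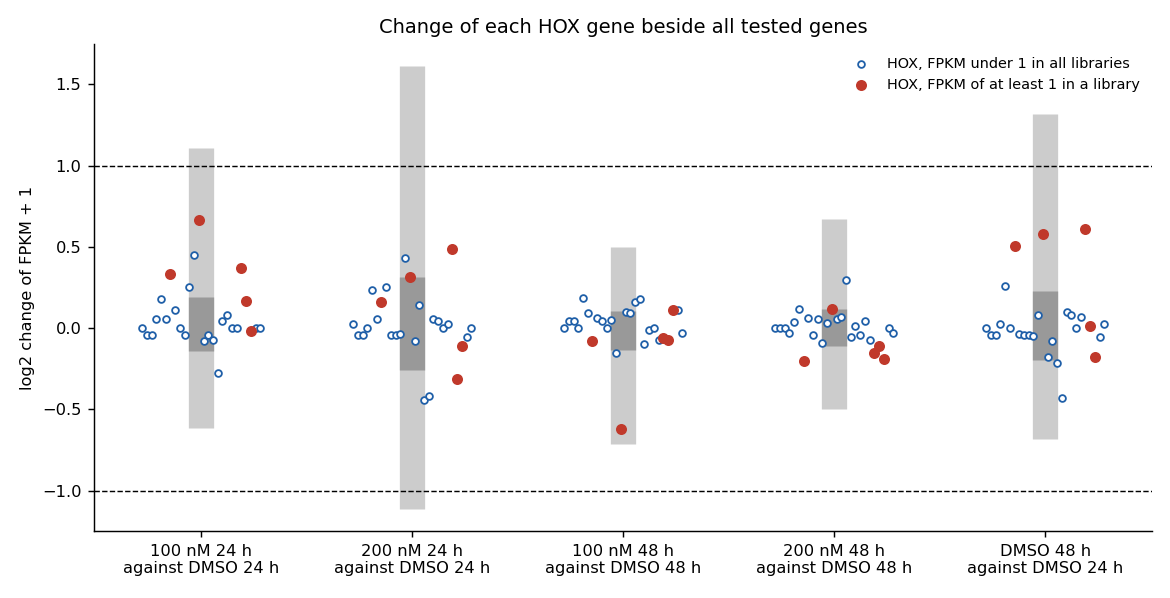
Log2 change of FPKM + 1 in 5 comparisons, with filled red points for the 5 HOX genes at an FPKM of at least 1 in some library, open points for the other 21, the range from the 1st to the 99th percentile of all tested genes in light grey, from the 25th to the 75th in dark grey, and dashed lines at a 2-fold change. No HOX gene reaches a dashed line, and the farthest is HOXB9 with 100 nM, at 0.67 for 24 h and -0.62 for 48 h.

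HOXB9, which promotes invasion-related programmes when overexpressed in breast cells, had the most fragments and the widest spread of log2(FPKM + 1) among members. Its FPKM was 4.21, 7.28 and 5.48 (24 h), then 6.78, 4.06 and 7.44 (48 h). The DMSO library of 24 h and the 100 nM library of 48 h were low, 200 nM for 24 h lay between, and the other 3 were high. The log2 change with 100 nM was 0.67 for 24 h and -0.62 for 48 h. With 200 nM it was 0.31 for 24 h and 0.12 for 48 h, and DMSO 48 h was 0.58 above DMSO 24 h. The dose series is therefore not monotonic in either time. From approximate fragment numbers, the 95% exact Poisson interval was 3.64 to 4.85 in DMSO 24 h, beside 6.51 to 8.11 with 100 nM. It was 6.04 to 7.59 in DMSO 48 h, beside 3.50 to 4.68 with 100 nM. These intervals cover counting error only and do not overlap within either pair, whereas the spread between cultures was not measured.

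HOXD1 and HOXB3 had their lowest value in the same library, DMSO 24 h. The FPKM of HOXD1, the most anterior HOXD gene, was 1.28, 1.95 and 2.19 (24 h), then 2.48, 2.34 and 2.13 (48 h). That of HOXB3 was 0.83, 1.31 and 1.05 (24 h), then 1.60, 1.46 and 1.26 (48 h). Both were higher with PCI-24781 than with DMSO at 24 h and lower at 48 h, and both were highest in DMSO 48 h. The log2 change of HOXD1 from 24 h to 48 h in DMSO, 0.61, was larger than its largest change with the inhibitor, 0.48 with 200 nM for 24 h. The counting interval of HOXD1 was 0.93 to 1.71 in DMSO 24 h and 1.98 to 3.07 in DMSO 48 h, without overlap. With 100 nM for 24 h it was 1.51 to 2.48, which overlaps DMSO 24 h, and with 200 nM for 24 h it was 1.72 to 2.75, which does not. For HOXB3, DMSO 24 h (0.59 to 1.14) and DMSO 48 h (1.26 to 2.01) did not overlap, while at 24 h DMSO and both doses overlapped. At 48 h the intervals of DMSO and both doses overlapped for HOXD1 and for HOXB3. For HOXD1 they were 1.98 to 3.07 in DMSO, 1.86 to 2.90 with 100 nM and 1.65 to 2.71 with 200 nM. The lower values at 48 h are thus within counting error. Time in culture and a property of the DMSO 24 h library cannot be told apart in this design.

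HOXD3 and HOXD4, which like HOXB3 act in patterning of the hindbrain and neck, varied least among the expressed members. The FPKM of HOXD3 was 4.30, 4.95 and 3.26 (24 h), then 4.35, 4.09 and 3.95 (48 h). The lowest library was 200 nM for 24 h, with a log2 change of -0.32 and a counting interval of 2.72 to 3.87 beside 3.69 to 4.98 in DMSO 24 h. The FPKM of HOXD4 was 3.78, 3.72 and 3.44 (24 h), then 3.23, 3.58 and 2.71 (48 h). All 6 counting intervals of HOXD4 overlapped, and its log2 changes lay between -0.19 and 0.11. The highest value was 1.52 times the lowest for HOXD3 and 1.40 times for HOXD4, and between 1.83 and 1.94 times for HOXB9, HOXB3 and HOXD1. On the log2(FPKM + 1) scale, the median over these 5 of the range across libraries was 0.51, beside 0.47 over all 11418 genes whose mean FPKM reached 1.

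**Figure D3:**
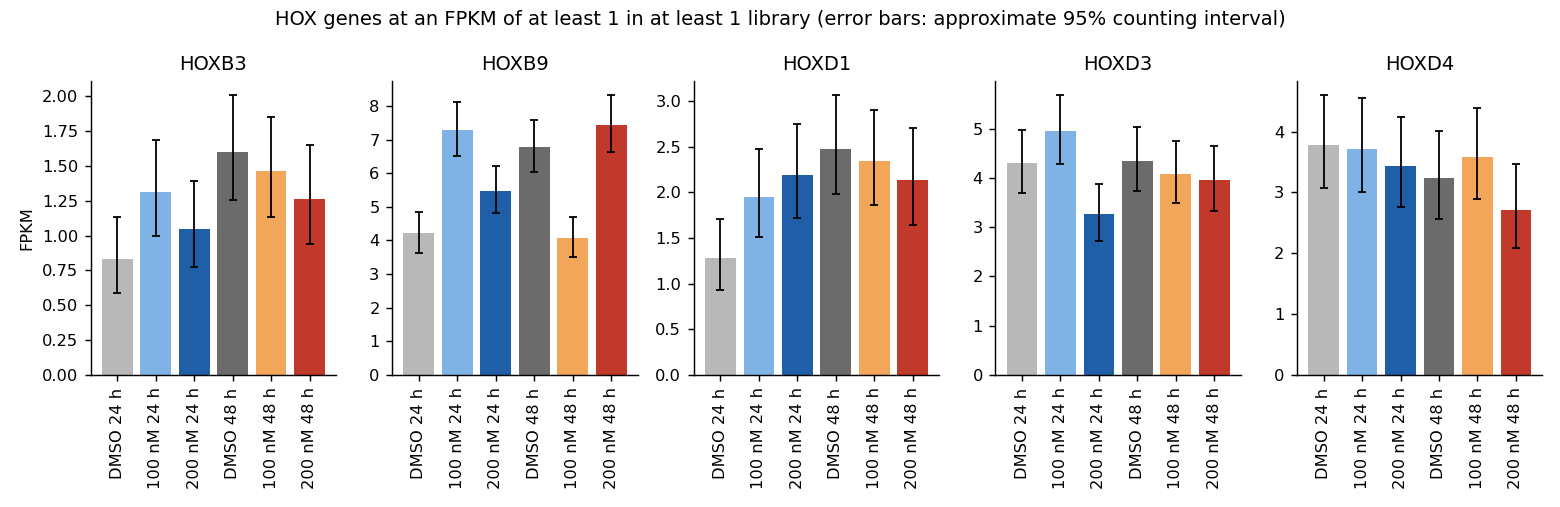
FPKM (vertical axis, from 0) of the 5 HOX genes that reached an FPKM of 1, in each library, with whiskers for the approximate 95% exact Poisson interval of counting error. HOXB9 is low in DMSO 24 h (4.21) and in the 100 nM library of 48 h (4.06), HOXD1 and HOXB3 are lowest in DMSO 24 h (1.28 and 0.83), and HOXD4 is nearly level (2.71 to 3.78).

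Among members under an FPKM of 1, HOXB8 and HOXC6 moved most in FPKM. HOXB8, which blocks differentiation of myeloid progenitors when overexpressed, had an FPKM of 0.21, 0.65 and 0.63 (24 h), then 0.28, 0.15 and 0.31 (48 h). The 2 treated libraries of 24 h were above the other 4. This corresponds to about 6.9, 20.7 and 19.8 fragments (24 h), then 8.9, 4.9 and 8.8 (48 h). The FPKM of HOXC6, which is active in the developing mammary gland, was 0.59, 0.51 and 0.17 (24 h), then 0.37, 0.53 and 0.68 (48 h). The lowest library was 200 nM for 24 h, with about 6.9 fragments beside 24.7 in DMSO 24 h.

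HOXA13, HOXC8, HOXB4 and HOXB7 were singled out after their values were seen. HOXA13 had an FPKM of 0.26, 0.43 and 0.48 (24 h), then 0.51, 0.72 and 0.55 (48 h), so that DMSO 24 h was again the lowest library and each treated library was above the DMSO library of its time. With 200 nM for 48 h HOXA13 was nearly level with DMSO, on about 43.3 fragments beside 44.6. HOXC8 had 0.51, 0.25 and 0.13 (24 h), then 0.12, 0.27 and 0.08 (48 h), with DMSO 24 h the highest. HOXC8 in DMSO 24 h rests on about 17.2 fragments, and in the other libraries on 2.4 to 9.2. HOXB4, a regulator of blood stem cell self-renewal, had 0.62, 0.75 and 0.93 (24 h), then 0.58, 0.65 and 0.65 (48 h). HOXB7 had 0.38 with 100 nM for 24 h and at most 0.16 elsewhere, with about 9.1 fragments at its highest. HOXC5 lay between 0.07 and 0.25 and HOXB2 between 0.03 and 0.12, with fewer than 8 fragments in any library.

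**Figure D4:**
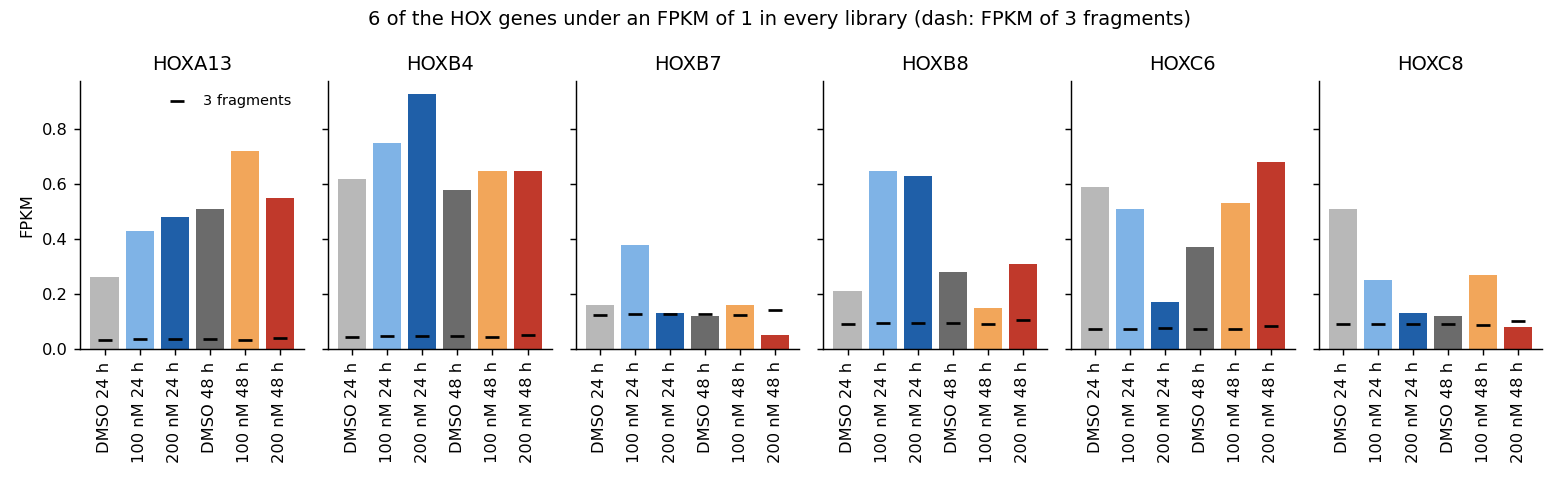
FPKM (vertical axis, from 0) of 6 HOX genes that stayed under an FPKM of 1 in every library, with a black dash at the FPKM that 3 fragments would give for that gene and library. HOXB8 is at 0.65 and 0.63 in the treated libraries of 24 h and at most 0.31 in the others, HOXC6 is lowest with 200 nM for 24 h (0.17), and HOXB7 and HOXC8 come down to the level of 3 fragments. The transcript lengths used for HOXA13 and HOXB4 exceed the span of these genes in the files, so their dashes may be too low.

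The partners and regulators of HOX genes were expressed more widely than the HOX genes. Of 10 TALE cofactor genes, 9 reached an FPKM of 1, led by PBX2, PBXIP1 (a PBX-interacting protein) and PBX3. PBX2 had 36.8, 27.6 and 26.1 (24 h), then 29.6, 36.7 and 27.4 (48 h), and was not called. PBX3 stayed between 6.16 and 8.76, and PBXIP1 was at 8.47 in DMSO 24 h and between 10.1 and 19.6 in the others, and was not called. The median log2 change of the 10 genes was 0.04 (100 nM) and 0.20 (200 nM) for 24 h, and 0.12 and 0.06 for 48 h. The values of 24 h depend on the pseudocount, and with 0.01 in place of 1 they were 0.18 and 0.62.

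All 29 chromatin regulators listed for the HOX clusters, among them the Trithorax-type methyltransferase gene KMT2A and the Polycomb genes EZH2, EED and SUZ12, reached an FPKM of 1, and none was called in any of the 5 comparisons. Over all tested genes the shares called higher and lower were at most 4.49% and 1.48%, both with 200 nM for 24 h, so a count of 0 among 29 does not set them apart. Their median log2 change lay between -0.13 and 0.02. The 3 with the highest level were PHC2, a Polycomb subunit gene, at 66.0 to 83.7, PSIP1, whose product tethers the KMT2A complex to chromatin, at up to 57.0, and DPY30, a subunit gene of methyltransferase complexes, at 44.6 to 49.1. Of 14 genes that flank the clusters, 10 were found and 8 reached an FPKM of 1. CALCOCO1, which lies beyond the posterior end of HOXC, was the only one called. Its FPKM was 10.0, 16.3 and 30.8 (24 h), then 18.5, 19.1 and 20.9 (48 h), and it was called higher with 200 nM for 24 h (log2 change of 1.53). CALCOCO1 was thus 1 of 8 tested flanking genes, beside 4.49% called higher over all tested genes. HIBADH, beyond the posterior end of HOXA, was at 27.8 in DMSO 24 h and between 39.9 and 45.3 in the other libraries. MTX2, beyond the anterior end of HOXD, stayed between 30.4 and 38.5, and CALCOCO2, near HOXB, between 42.5 and 52.0. Every value of these 4 flanking genes was above the highest HOX value, 7.44, whereas SKAP1 and TTLL6 near HOXB were at most 0.36 and 0.18. Of the 18 listed noncoding RNA genes of the clusters, such as HOTAIR, none was analysed here.

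Retinoic acid, a vitamin A derivative, switches on anterior HOX genes in embryos through its receptors. Of 18 genes of retinoic acid handling and of the CDX family, 13 were found and 9 reached an FPKM of 1, led by RXRB, RARG and RXRA, which encode receptors. RARA and RARB encode retinoic acid receptors. RARA had an FPKM of 8.34, 11.4 and 21.3 (24 h), then 15.6, 15.5 and 16.3 (48 h), and was called higher with 200 nM for 24 h (log2 change of 1.25). RARB had 0.75, 1.94 and 2.20 (24 h), then 2.52, 1.89 and 2.82 (48 h), and was called only in DMSO 48 h against DMSO 24 h (1.01). CRABP2, which carries retinoic acid to its receptors, had 3.66, 6.77 and 9.62 (24 h), then 7.45, 7.17 and 6.32 (48 h), and was called higher with 200 nM for 24 h (1.19). DHRS3, which reduces retinal, was at 0.62 to 0.89 in the 3 libraries of 24 h and 1.94 to 3.83 in those of 48 h, and was called in DMSO 48 h against DMSO 24 h (1.20) and in no comparison with the inhibitor. RARA and CRABP2 were 2 of 8 tested genes of the list with 200 nM for 24 h, where 4.49% of all tested genes were called higher. RARB and DHRS3 were 2 of 9 between the DMSO libraries, where the share was 2.49%. Whether these counts differ from the shares was not tested. RXRA, RXRB and RARG stayed between 14.9 and 24.8 in all libraries.

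**Figure D5:**
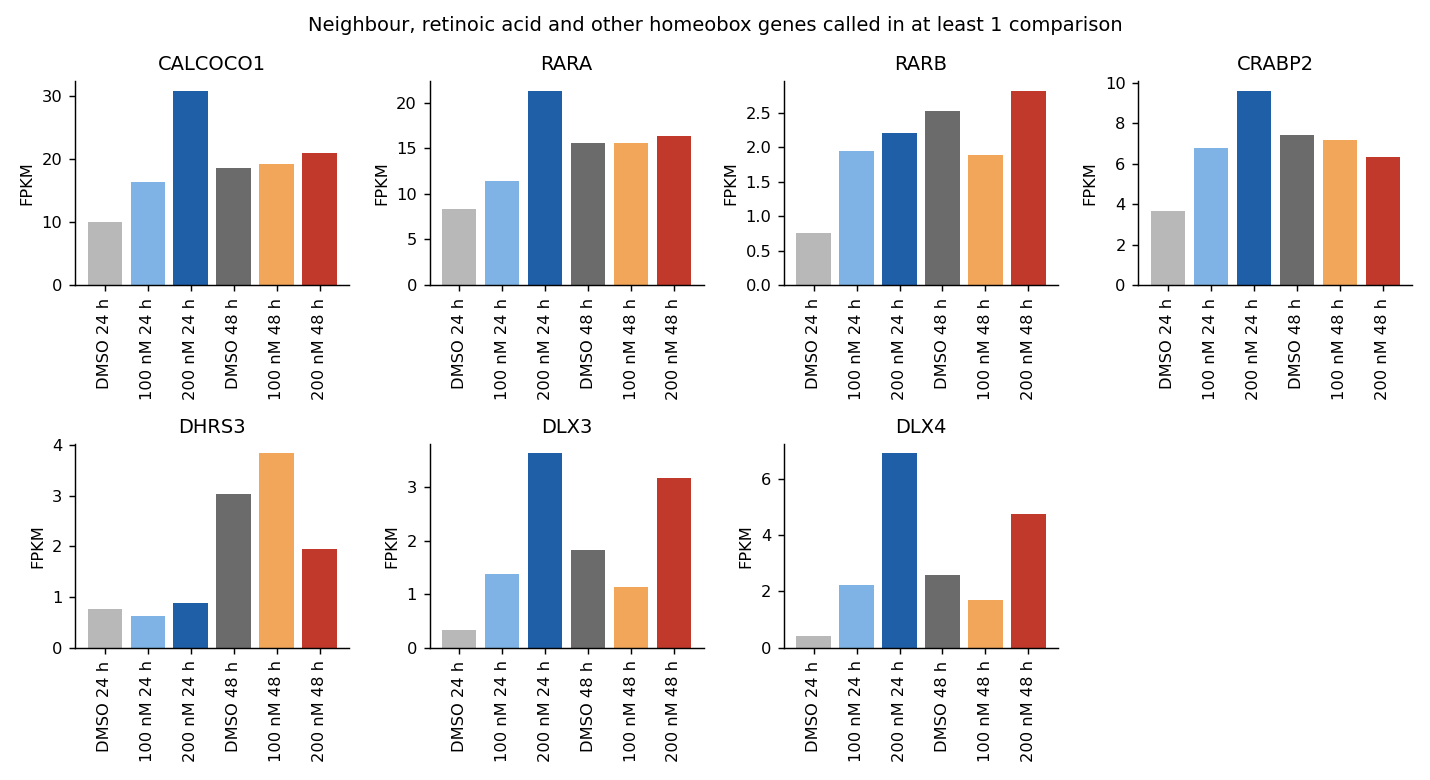
FPKM (vertical axis, from 0, with its own scale in each panel) in each library of genes of the neighbour, retinoic acid and other homeobox lists that changed at least 2-fold in some comparison. CALCOCO1, RARA, RARB, CRABP2, DLX3 and DLX4 are lowest in DMSO 24 h, and DHRS3 separates the libraries of 24 h (at most 0.89) from those of 48 h (at least 1.94).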

How the data were processed

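RNA was extracted with TRIzol, and libraries were made and sequenced by a company after mRNA enrichment or rRNA depletion. The authors deposited 1 table per condition (1 library each) with an FPKM for each gene listed, given to 2 decimals. The submitters' processing notes name Bowtie2, RSEM and hg19, and versions, filters and use of strand are not given in the sources used here. Reads from antisense genes of the clusters could therefore not be told apart.

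Genes were named by NCBI Gene ID from the RefSeq table of GRCh38.p14, in which 16585 genes had a symbol and 38 had none. Log2 changes used a pseudocount of 1, and a gene was called across all genes at a 2-fold change if either FPKM reached 1. No significance test was run. HOX genes with an FPKM of at least 1, or with a range of at least 0.5, are given in full. The members and lists were chosen with earlier results of these data known. Depth was inferred from genes with 1 transcript of 500 to 1500 bases (GENCODE release 29 lengths), and fragment numbers are FPKM multiplied by length and depth, so they are approximate. For HOXA13 and HOXB4 the length used exceeds the span of the gene in the files, so their fragment numbers may be too high. The calling step was checked on simulated data. Python 3.11.15, numpy 2.4.6, pandas 2.3.3 and scipy 1.17.1 were used. Alternatives were pseudocounts of 0.1 and 0.01, TPM, median-of-ratios factors, other filters and a 1.5-fold threshold. Some genes are not reported here.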

Additional observations from a re-analysis of the deposited data

Results flagged for a closer look

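HOXD1, HOXB3 and HOXC6 moved one way with both doses at 24 h and the other way with both doses at 48 h. The difference between the times was not tested, since each condition has 1 library and both doses of a time share their DMSO library. The log2 changes of HOXD1 at 100 nM and 200 nM were 0.37 and 0.48 (24 h), then -0.0592 and -0.15 (48 h). Those of HOXB3 were 0.34 and 0.16 (24 h), then -0.0799 and -0.20 (48 h). Those of HOXC6 were -0.0745 and -0.44 (24 h), then 0.16 and 0.29 (48 h). At 48 h the counting intervals of DMSO and both doses overlapped for HOXD1 and for HOXB3. HOXC6 rested on about 24.7 fragments in DMSO 24 h and 20.8 with 100 nM for 24 h. HOXD1 and HOXB3 had their lowest FPKM in DMSO 24 h and their highest in DMSO 48 h, and the part of these libraries in the pattern was not tested.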

How the results depend on the processing

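No paired analysis was possible because the labels give no replicate numbers that pair libraries. A fit over doses with time as a block, which would take the difference between the times as error, was not run. The number of HOX genes called was 0 in all 10 counts (5 comparisons, 2 directions) and stayed 0 with pseudocounts of 0.1 and 0.01, TPM, median-of-ratios factors, no filter, and a filter that required an FPKM of 1 on both sides. The runs with pseudocounts of 0.1 and 0.01 kept the filter, so they left out members under an FPKM of 1. With no filter, a gene under 1 in every library still cannot change 2-fold, because the pseudocount was 1. For members under 1 in every library, these counts of 0 were thus fixed in advance and say nothing of their change. With a 1.5-fold threshold HOXB9 was 1 gene called higher with 100 nM for 24 h (6.83% of all tested genes were called in either direction) and 1 called lower with 100 nM for 48 h (2.27%), and HOXD1 was 1 called higher in DMSO 48 h against DMSO 24 h (10.5%). A setting with no filter and a pseudocount of 0.1 was chosen after seeing the data. With it, 1 HOX gene was called higher (HOXB8) with 100 nM for 24 h (6.33% of all genes). With 200 nM for 24 h, 1 was called higher (HOXB8) and 2 lower (HOXC6 and HOXC8), beside 12.2%. In DMSO 48 h against DMSO 24 h, 2 were called lower (HOXC4 and HOXC8), beside 7.31%. The HOX medians lay between -0.0092 and 0.074 under the other pseudocounts and scalings. Over the 5 members with a mean FPKM of 1 or more, the median was 0.34 (100 nM) and 0.16 (200 nM) for 24 h, -0.07 and -0.15 for 48 h, and 0.51 in DMSO 48 h against DMSO 24 h. With the other pseudocounts and scalings, the medians for 24 h reached 0.18 (100 nM) and 0.62 (200 nM) for the TALE cofactors and 0.39 and 0.46 for the flanking genes, and 0.23 with 200 nM for the retinoic acid genes, and no other list median moved by more than 0.1. Depth limits statements on members below an FPKM of about 0.1.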

Other observations

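Of 83 listed homeobox genes outside the clusters, 60 were found and 34 reached an FPKM of 1, led by ZEB1, TGIF1 and CUX1, which are broadly expressed transcription factors. The distal-less genes DLX3 and DLX4, which act in epithelial and placental development, were the only members called. The FPKM of DLX4 was 0.41, 2.24 and 6.90 (24 h), then 2.60, 1.71 and 4.76 (48 h). That of DLX3 was 0.34, 1.37 and 3.63 (24 h), then 1.82, 1.14 and 3.18 (48 h). Both were highest at 200 nM of each time and lowest in DMSO 24 h. DLX4 was called higher with both doses for 24 h (log2 changes of 1.20 and 2.49), DLX3 with 200 nM for 24 h (1.79), and both in DMSO 48 h against DMSO 24 h (1.35 and 1.07). They were 2 of 32 tested genes of the list with 200 nM for 24 h, where 4.49% of all tested genes were called higher, and 2 of 29 between the DMSO libraries, where the share was 2.49%. With 100 nM for 24 h, DLX4 was 1 of 32, beside 1.35%. The median log2 change of the 60 genes was between 0.00 and 0.03 in the 5 comparisons.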
